A study of Homo sapiens with 16 samples.

Results

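The genes described here are the 98 named in the mitochondrial Gene Ontology terms of the MDA231 brain metastasis table, out of 2646 genes named in that table. They were chosen by the table itself: every gene of the 8 terms, among 314, whose name contains "mitochond" was taken, and genes of the autophagy term and of the terms naming fatty acids were to be removed. Those 4 terms held 81 genes, and 0 of the mitochondrial genes were among them. The enrichment values of the 8 terms therefore selected the members and are given as a description only.

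The table belongs to a Flura-seq study of breast cancer lines growing in mouse brain. Flura-seq marks newly made RNA in cells that can convert 5-fluorocytosine and pulls the marked RNA down with an antibody. The 16 libraries form 4 groups of 4, input and immunoprecipitated (IP) RNA of HCC1954 and of MDA231, both as brain metastatic derivatives of breast cancer cell lines, MDA231 being triple-negative and HCC1954 ERBB2-positive. All brains were taken 30 days after injection and 12 hours after 250 mg/kg 5-fluorocytosine, so the treatment is shared by input and IP. The labels used here give no mouse strain, age or sex. The files analysed give term tables and no level per library, so no replicate error stands behind any value, and the direction of a listed gene, higher or lower in the IP RNA, is not given in the labels or files used. Markers could be checked only by whether they were named: PECAM1 was the 1 of 14 brain cell markers named in the table, and KRT8 and KRT18 were the 2 named among 5 carcinoma markers, which shows neither presence nor absence of a cell type.

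Mitochondria keep a small genome of their own that encodes a few subunits of the respiratory chain, and they translate it on a separate ribosome. All proteins of that ribosome, and nearly all other mitochondrial proteins, are encoded in the nucleus, made in the cytosol and imported through the TOM and TIM translocases. The organelles also fuse, divide and move along microtubules, and permeabilization of their outer membrane by the BCL2 family releases cytochrome c and starts apoptosis. Brain tissue depends heavily on mitochondrial respiration.

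All 98 members are nuclear genes, with 0 on the mitochondrial chromosome. Most encode mitochondrial proteins, but the terms also took in genes best known for other work: CAV2, a caveolin of the plasma membrane; CXADR, a virus receptor at cell junctions; FANCG, of the Fanconi anemia DNA repair pathway; and IFIT2, an interferon-induced antiviral gene. By the terms that name them, 39 members belonged to translation, 27 to dynamics and organisation, 14 to import and targeting, 13 to permeability and cell death and 8 to respiratory chain assembly. MTERF4, BID and RHOT1 each belonged to 2 of these functions.

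Promoter sequences are shown first, as examples chosen because they hold the word CCGGAAG. They are the stretches of up to 120 bases nearest the RefSeq gene start that overlap no exon of the GENCODE basic set, very short ones left out. Such a stretch was found for 61 members, and 12 of the 61 held the word, among them 6 of 25 translation members, which are the ones printed. Most stretches did not hold it. Some of the 61, such as those of MRPL37 and MRPL11, lie within the gene's own GENCODE span, while the 6 printed lie outside it. No other genes were searched in this way, so these counts have no background share beside them. This word is the core of sites bound by ETS factors, among them the GABP complex, a known activator of mitochondrial genes whose subunits GABPA and GABPB1 are both members. All are RefSeq sequences on GRCh38.p14, written 5′ to 3′ on the gene's own strand, with the word, or its reverse complement CTTCCGG, in capitals. GATB lies at chr4:151761024-151761143 (minus strand), MRPL58 at chr17:75012550-75012669 (plus), MRPS10 at chr6:42217866-42217985 (minus), MRPS34 at chr16:1773156-1773206 (minus), MTERF4 at chr2:241102333-241102452 (minus) and MTRF1L at chr6:153002710-153002829 (minus).
GATB: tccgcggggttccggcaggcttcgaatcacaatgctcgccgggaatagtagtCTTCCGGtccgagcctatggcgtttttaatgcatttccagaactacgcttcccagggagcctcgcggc
MRPL58: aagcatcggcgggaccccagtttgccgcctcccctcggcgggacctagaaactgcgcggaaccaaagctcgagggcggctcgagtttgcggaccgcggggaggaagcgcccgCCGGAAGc
MRPS10: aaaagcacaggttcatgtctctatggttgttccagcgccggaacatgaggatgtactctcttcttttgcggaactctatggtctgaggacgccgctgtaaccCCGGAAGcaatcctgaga
MRPS34: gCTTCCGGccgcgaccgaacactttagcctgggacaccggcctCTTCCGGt
MTERF4: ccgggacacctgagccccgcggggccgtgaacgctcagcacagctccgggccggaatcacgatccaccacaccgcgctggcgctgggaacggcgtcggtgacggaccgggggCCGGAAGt
MTRF1L: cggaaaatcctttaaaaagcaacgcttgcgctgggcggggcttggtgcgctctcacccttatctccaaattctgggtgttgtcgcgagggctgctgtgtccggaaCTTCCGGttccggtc

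One further stretch is shown because it lies between 2 members. MRPL46 and MRPS11, a large and a small subunit protein of the mitochondrial ribosome, are transcribed away from each other. The 33 bases between their GENCODE limits lie at chr15:88467420-88467452 and are written on the MRPL46 (minus) strand. The stretch was taken for MRPL46, and the RefSeq start used for MRPS11 lies within the GENCODE span of MRPS11.
MRPL46 and MRPS11: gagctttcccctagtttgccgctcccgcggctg

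Mitochondrial translation had the smallest p of the 8 terms, although it was highest in neither fold nor number of genes. Its main term held 19 of 36 background genes (52.8%, 95% exact binomial interval 35.5 to 69.6) and was enriched by 2.44 times per the authors' deposited table, with unadjusted p = 0.000155 and adjusted p = 0.0544. Of all 16792 background genes, 21.6% were in the MDA231 list. The term was 18th of 314 by p and lay just past an adjusted p of 0.05, which 4.78% of the listed terms passed and 0 of the 8 mitochondrial terms did.

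The 19 genes cover successive steps of making mitochondrial proteins. QRSL1, GATB and GATC are the 3 subunits of the amidotransferase that makes glutaminyl-tRNA in mitochondria, and all 3 were listed. HARS2 and RARS2 charge the histidine and arginine tRNAs of the organelle. MTERF3 and MTERF4 act on mitochondrial transcription and ribosome assembly, and NOA1 is a GTPase needed for mitochondrial protein synthesis. NDUFA7, a subunit of respiratory complex I, is also annotated to the term. The term also holds 9 ribosomal proteins, 2 of the large subunit (MRPL10 and MRPL51) and 7 of the small one (MRPS2, MRPS7, MRPS11, MRPS17, MRPS18B, MRPS21 and MRPS34).

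The elongation and termination terms are almost one set of genes. Mitochondrial translational termination held 28 of 86 background genes (32.6%, interval 22.8 to 43.5), which the authors' deposited table gives as 1.51-fold enriched with unadjusted p = 0.0218 and adjusted p = 0.750. Mitochondrial translational elongation held 27 of 85 (31.8%, interval 22.1 to 42.8), which the authors' deposited table gives as 1.47-fold enriched with unadjusted p = 0.0331 and adjusted p = 0.813. All 27 elongation genes were also in the termination term, whose 1 further gene was MTRF1L, a release factor that reads stop codons. The 27 are ribosomal proteins, and they include MRPL58, a ribosome-bound hydrolase that frees peptides from stalled ribosomes. The main translation term shared 8 genes with each, which is 42.1% of its own 19. These 3 terms thus name 39 genes, and their values are not separate results.

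Across the mitochondrial ribosome, 16 of 50 large subunit genes (32.0%, interval 19.5 to 46.7) and 12 of 32 small subunit genes (37.5%, interval 21.1 to 56.3) were named in the table, where 15.8% of background genes were. The 2 intervals overlap over most of their range. All 28 were named in a mitochondrial term, so the choice of terms alone puts these genes among the members, and nothing is read from their share standing above 15.8%. The large subunit genes were MRPL10, MRPL11, MRPL18, MRPL21, MRPL28, MRPL30, MRPL37, MRPL39, MRPL40, MRPL41, MRPL44, MRPL46, MRPL48, MRPL50, MRPL51 and MRPL58. Besides the 7 above, the small subunit genes were MRPS9, MRPS10, MRPS26, MRPS30 and MRPS33.

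The tRNA-charging genes of the organelle and its soluble translation factors were named in different shares. Of 23 aminoacyl-tRNA synthetase and amidotransferase genes, 11 were named (47.8%, interval 26.8 to 69.4): the 5 above, and genes such as CARS2, IARS2, KARS1, NARS2 and SARS2, which stood only in other terms, chiefly tRNA aminoacylation for protein translation. Of 24 translation factors, activators and tRNA modifiers, 3 were named (12.5%, interval 2.66 to 32.4), namely MTRF1L and the tRNA-modifying enzymes MTO1 and TRMU. A gene that is not named may still have been in the list, since only genes of listed terms are printed, and the difference between the 2 groups was not tested.

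**Figure D1:**
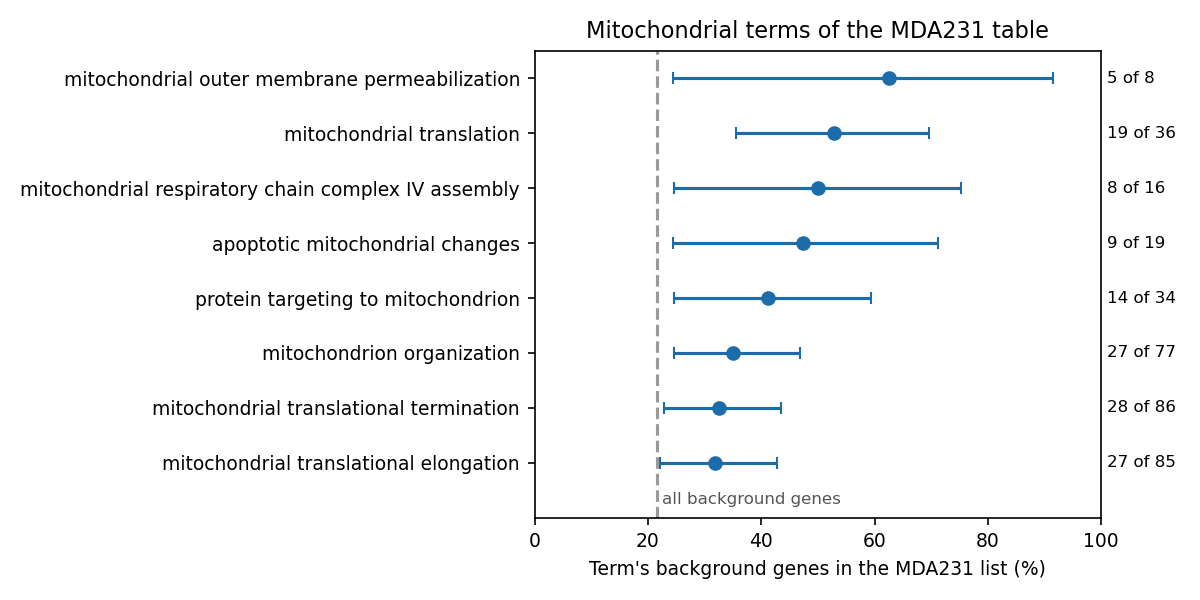
Share of each mitochondrial term's background genes that were in the MDA231 list (horizontal axis, percent), with exact 95% binomial intervals as bars; the dashed line is the 21.6% of all background genes. The shares run from 31.8% for elongation to 62.5% for outer membrane permeabilization, whose 5 of 8 genes give the widest interval; these values chose the genes and are not a test.

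Nuclear genes that control the mitochondrial genome stood in the organisation term. TFB1M, which methylates mitochondrial ribosomal RNA, TFB2M, the initiation factor of mitochondrial transcription, and MTERF1, a transcription termination factor, were named there, and TFB1M and TFB2M stood together in rRNA methylation. With MTERF3, MTERF4 and 4 genes named in other terms (POLG, the mitochondrial DNA polymerase; SUPV3L1, a helicase; HSD17B10 and PRORP, of the tRNA-cutting RNase P), 9 of 25 genes for mitochondrial DNA and RNA were named (36.0%, interval 18.0 to 57.5). Of 15 nuclear regulators of mitochondrial biogenesis, 6 were named (40.0%, interval 16.3 to 67.7). For every gene list here, the share of all background genes named was 15.8%. Members on the lists were named through the choice of terms, so nothing is read from shares above it. ESRRA, a nuclear receptor that drives respiratory genes, GABPA and GABPB1 were members, and MYC, PPARA and SIRT1 were named in other terms.

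Protein targeting to mitochondrion held 14 of 34 background genes (41.2%, interval 24.6 to 59.3), which the authors' deposited table gives as 1.91-fold enriched with unadjusted p = 0.0202 and adjusted p = 0.730. It named TOMM40, the channel of the outer membrane; MTX1 and MTX3, metaxins of the sorting machinery; TIMM17A and TIMM17B, alternative subunits of the presequence translocase; TIMM22, the core of the carrier translocase; and TIMM10B, its small partner. The term also named BID, GDAP1, MFN2, MTERF4, SLC25A6 and TRNT1. On the lists, 3 of 17 outer membrane import genes (17.6%) and 11 of 30 inner membrane import and processing genes (36.7%, interval 19.9 to 56.1) were named. The inner membrane genes outside the mitochondrial terms were AGK, GRPEL2, HSPA9, IMMP2L, PMPCB and TIMM50, of which HSPA9 is the matrix motor chaperone and PMPCB a subunit of the presequence peptidase.

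Mitochondrial respiratory chain complex IV assembly held 8 of 16 background genes (50%, interval 24.7 to 75.3), which the authors' deposited table gives as 2.32-fold enriched with unadjusted p = 0.0392 and adjusted p = 0.848. SURF1 acts in early maturation of cytochrome c oxidase, COX19 in copper delivery, and COX14, SMIM20 and TIMM21 around newly made COX1; the rest were CHCHD5, COA4 and PET117. On the list of 26 complex IV assembly genes, which does not include CHCHD5, 12 were named: the other 7 of the term, CEP89, a member through the organisation term, and COA8, COX10, COX15 and COX18 in other terms (46.2%, interval 26.6 to 66.6). COX10 and COX15 make the heme A of the enzyme and stood in heme biosynthetic process, the term that also held the member ALAS1, the first enzyme of heme synthesis.

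For the other parts of the chain no assembly term is among the 8 mitochondrial ones, whereas complex IV has its own, so the shares below follow in part from which terms are listed. Of 22 complex I assembly genes, 2 were named (FOXRED1 and NDUFAF1; 9.09%, interval 1.12 to 29.2), of 14 for complexes II, III and V, 1 (ATPAF1; 7.14%), and of 37 complex I subunits, 5 (13.5%, interval 4.54 to 28.8): NDUFA6, NDUFA7, NDUFA8, NDUFS7 and NDUFV1. These shares lie below the 15.8% of all background genes named, while their intervals include it. The calcium uniporter list had 0 of 9 genes named (upper bound 33.6%).

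**Figure D2:**
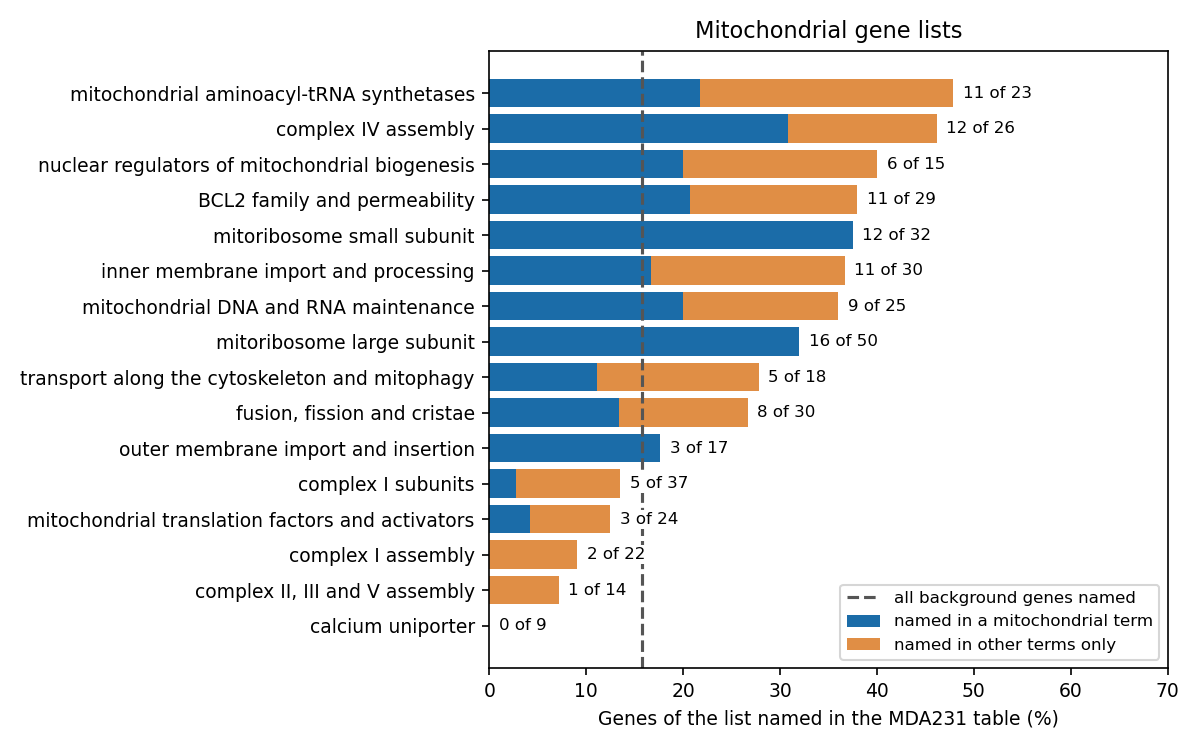
Share of each of 16 mitochondrial gene lists named in the MDA231 table (horizontal axis, percent), split into genes of mitochondrial terms and genes of other terms only, with the counts beside the bars; the dashed line is the 15.8% of all background genes named. Aminoacyl-tRNA synthetases (11 of 23) and complex IV assembly (12 of 26) lie at the top and the calcium uniporter (0 of 9) at the bottom. Counting only genes in at least 2 terms puts the first 2 at 5 of 23 and 4 of 26. The mitochondrial ribosome's large and small subunits are then at 16 of 50 and 11 of 32. The elongation and termination terms share 27 ribosomal genes, which pass that count through this overlap, so nothing is read from the change in order.

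Mitochondrion organization named genes of many different roles and held 27 of 77 background genes (35.1%, interval 24.5 to 46.8), which the authors' deposited table gives as 1.62-fold enriched with unadjusted p = 0.00910 and adjusted p = 0.566. Its genes for shape and movement were MIEF2, a fission receptor; MSTO1, which promotes fusion; TMEM11, of the cristae; and RHOT1, the Miro GTPase that ties mitochondria to motors. Its protein quality genes were LONP1, the main matrix protease; SPG7, a subunit of the inner membrane AAA protease; HTRA2, a protease of the intermembrane space; STOML2, an inner membrane scaffold; and DNAJA3, a matrix co-chaperone. Enzymes and transporters included ALAS1, ATP7A, a copper pump, and SLC25A36, a pyrimidine nucleotide carrier. VPS13C, a lipid transfer protein, HAX1, a regulator of apoptosis, CEP89, SHARPIN, a subunit of a ubiquitin ligase, CAV2, CXADR and FANCG were also named, beside the regulators above.

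Fusion and fission genes were spread over several terms. On the list of 30 fusion, fission and cristae genes, which holds neither MSTO1 nor TMEM11, 8 were named (26.7%, interval 12.3 to 45.9). MFN2, the mitofusin, and GDAP1 were members through the targeting term, and MFN1 stood only in macroautophagy. MUL1 and MARCHF5, ubiquitin ligases of the outer membrane, and MTFP1 were likewise in other terms only. Both Miro genes, RHOT1 and RHOT2, were members, among 5 of 18 transport and mitophagy genes named (27.8%).

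The cell death terms were small. Apoptotic mitochondrial changes held 9 of 19 background genes (47.4%, interval 24.4 to 71.1), which the authors' deposited table gives as 2.19-fold enriched with unadjusted p = 0.0356 and adjusted p = 0.830. They were BID and BIK, BH3-only proteins of the BCL2 family, and PPIF, the cyclophilin of the permeability transition. Also named were SLC25A4, an ADP/ATP carrier, and HK2, a hexokinase that docks on the outer membrane, with CDKN2A, IFIT2, JTB and PPP2CB. Mitochondrial outer membrane permeabilization held 5 of 8 background genes (62.5%, interval 24.5 to 91.5), which the authors' deposited table gives as 2.89-fold enriched with unadjusted p = 0.0720 and adjusted p = 0.939, namely BID, BLOC1S2, RHOT1, RHOT2 and RTL10, and was the 1 mitochondrial term with an unadjusted p above 0.05. The largest unadjusted p listed was 0.0973, so terms above about that value are not seen, and 68.2% of all listed terms had an unadjusted p under 0.05. Among 29 BCL2 family and permeability genes, 11 were named (37.9%, interval 20.7 to 57.7), of which AIFM1, BAD, BAK1, BCL2L11 and VDAC3 stood in other terms only. CDKN2A encodes cell cycle inhibitors and is known to be deleted in MDA-MB-231 cells; why it is listed was not tested.

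Outside the mitochondrial terms, 52 of the 98 members were named in at least 1 of 74 other terms, and 46 (46.9%) in none. With the mitochondrial terms counted, the median number of terms was 2 for members and 2 for all genes named in the table. Among the translation members 28 of 39 (71.8%) stood in no other term, as did 5 of 8 complex IV assembly genes (62.5%). Of the import genes 4 of 14 did (28.6%), of the organisation genes 7 of 27 (25.9%) and of the cell death genes 2 of 13 (15.4%). These numbers come from the same list and count only the terms listed in the table. How widely each gene is annotated beyond them was not examined.

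Of the 52 members with other terms, 30 had 1 such term and 16 had 3 or more. Among these, CDKN2A stood in 13 terms in all, DNAJA3 in 12, BID and BLOC1S2 in 6 and ALAS1 in 5. ATP7A, CAV2, CXADR and ESRRA were among those in 4. The other term with most members was apoptotic process, a large term with 141 of the 2646 genes named in the table. It held 7 members (7.14% of members, 4.96% of the term), and whether this exceeds the term's share of all named genes was not tested. They were BIK, CDKN2A, MFN2, SLC25A6, NOA1 and the ribosomal proteins MRPL41 and MRPS30. Macroautophagy held MFN2, MTERF3 and TOMM40, tRNA aminoacylation held HARS2, RARS2 and MRPL39, and aerobic respiration held CHCHD5, COX19 and SURF1. IFIT2 was shared with the type I interferon signaling pathway, and FANCG with DNA repair.

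**Figure D3:**
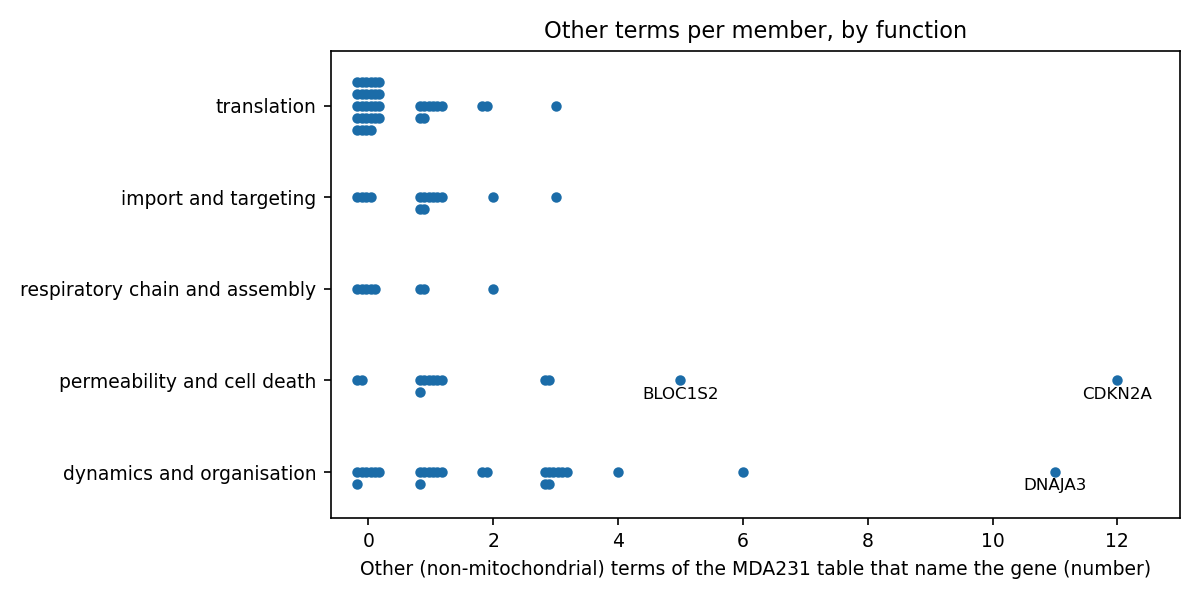
Number of non-mitochondrial terms of the MDA231 table that name each member (horizontal axis), by function; each point is 1 gene, set apart slightly where genes share a value, and BID, MTERF4 and RHOT1 appear in 2 rows each. Most translation genes sit at 0, and the labelled genes CDKN2A, DNAJA3 and BLOC1S2 reach 12, 11 and 5.

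The HCC1954 table named 0 of the 98 members and had 0 mitochondrial terms among 37. That table names 30 genes, 0.179% of the background, from a list of 66 genes with a process, so a count of 0 is not informative about these genes in HCC1954.

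In the genome, some members lay close together. MRPL46 and MRPS11 (chromosome 15, 88459476 to 88467419 and 88467453 to 88480773) start 34 bases apart on opposite strands. COA4 and MRPL48 lie 7.53 kb apart on chromosome 11, and FANCG and STOML2 19.8 kb apart on chromosome 9. Chromosome 1 held 11 members (11.2%, against 10.2% of protein-coding genes) and chromosome 9 held 8 (8.16%, against 3.89%). Other chromosomes differed too, such as 21 with 3 members (3.06%, against 1.16%) and 14 with 0 (against 3.07%). None of these differences was tested.

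Some members stood head to head with another gene. A protein-coding gene on the other strand started within 1000 bases upstream of 21 of 98 members (21.4%, 95% exact binomial interval 13.8 to 30.9). The share was 9.93% of the 2547 other protein-coding genes named in the table and 7.38% of all 19951 protein-coding genes. Among translation members it was 13 of 39 (33.3%, interval 19.1 to 50.2), among organisation members 5 of 27 (18.5%) and among cell death members 0 of 13. The pairs include GATC with TRIAP1, whose starts are 26 bases apart, MRPL21 with IGHMBP2 (7 bases), MRPL30 with MITD1 (21 bases), MRPL18 with TCP1 (63 bases), RARS2 with ORC3 (64 bases) and QRSL1 with RTN4IP1 (91 bases). Members were also short, with a median span of 13.2 kb against 36.8 kb for the other genes of the table and 27.1 kb for all protein-coding genes. The differences were not tested, and no set of mitochondrial genes outside the list was compared.

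**Figure D4:**
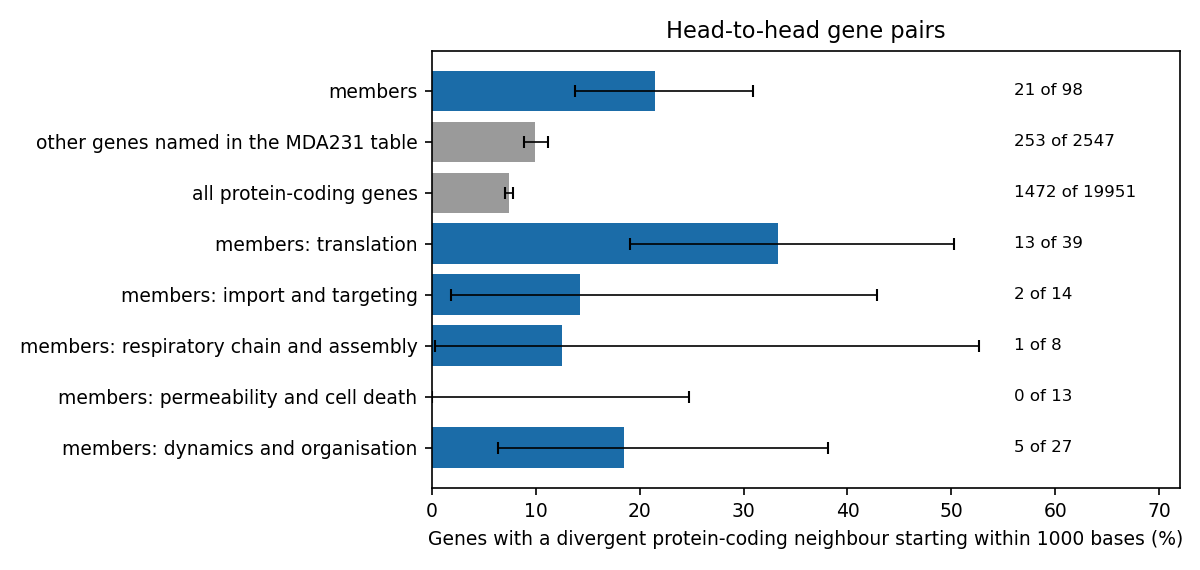
Share of genes with a protein-coding neighbour that starts within 1000 bases upstream on the other strand (horizontal axis, percent), with exact 95% binomial intervals and counts, for the members, their functions (blue) and reference sets (grey). Translation members reach 33.3%, all members 21.4% and all protein-coding genes 7.38%.

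The ETS word marked in the sequences above was searched in all promoters. Promoters were found for 84 of 98 members, as windows from 250 bases before to 50 after the RefSeq start, and both strands were searched. For 56 of these 84, the first 20 bases after that start lay in the opening part of a GENCODE transcript of the gene. The head-to-head pairs used GENCODE starts, which can lie far from the RefSeq start used here, as in CAV2 and SPG7. CCGGAAG was present in 32 of 84 (38.1%, interval 27.7 to 49.3), in 21.1% of 2111 other genes of the table, in 14.2% of protein-coding genes and in 10.7% of all 27305 promoters. It was in 15 of 35 translation promoters (42.9%) and in 4 of 8 for complex IV assembly (50%), against 2 of 9 for cell death (22.2%). Among the members, 9 promoters held it more than once, and 31 of its 43 occurrences lay from 100 bases before to 50 after the start. In MRPS34 it occurred 3 times, beginning 71, 29 and 19 bases before the start, the first 2 of which are in the stretch printed above. The median GC content was 64.7% for members, 65.3% for the other genes of the table, 62.7% for protein-coding genes and 58.3% for all promoters. Its part in these shares was not tested. No set of mitochondrial genes outside the list was compared, so the shares are not shown to be particular to the members.

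Other words were rarer or closer to the background. The YY1 word AAGATGGCG was in 7 of 84 member promoters (8.33%, interval 3.42 to 16.4). It was in 4.78% of the other genes of the table, 2.74% of protein-coding genes and 1.85% of all promoters. All 7 occurrences began 8 to 23 bases after the start, and the genes were MRPL46, MRPL50, MRPS10, MRPS18B, MRPS30, NDUFA7 and MTX3. The NRF1 core GCATGCGC was in 8 of 84 (9.52%, interval 4.20 to 17.9), against 5.68%, 4.26% and 3.27%. Only 1 of these was a translation gene, MRPS18B, and 5 of 22 organisation promoters held it (22.7%), namely ALAS1, DNAJA3, ESRRA, TFB1M and TFB2M. The SP1 word GGGCGG was in 65.5% of members, 71.9% of the other genes of the table, 58.5% of protein-coding genes and 44.6% of all promoters. In the same order, the E-box CACGTG was in 8.33%, 10.8%, 8.88% and 7.43%. The CCAAT box word ATTGG (either strand) was in 38.1%, 36.8%, 36.4% and 35.7%. The TATA box TATAAA was in 3.57%, 5.21%, 9.63% and 12.0%. A word is a match of letters and not a measured binding site.

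**Figure D5:**
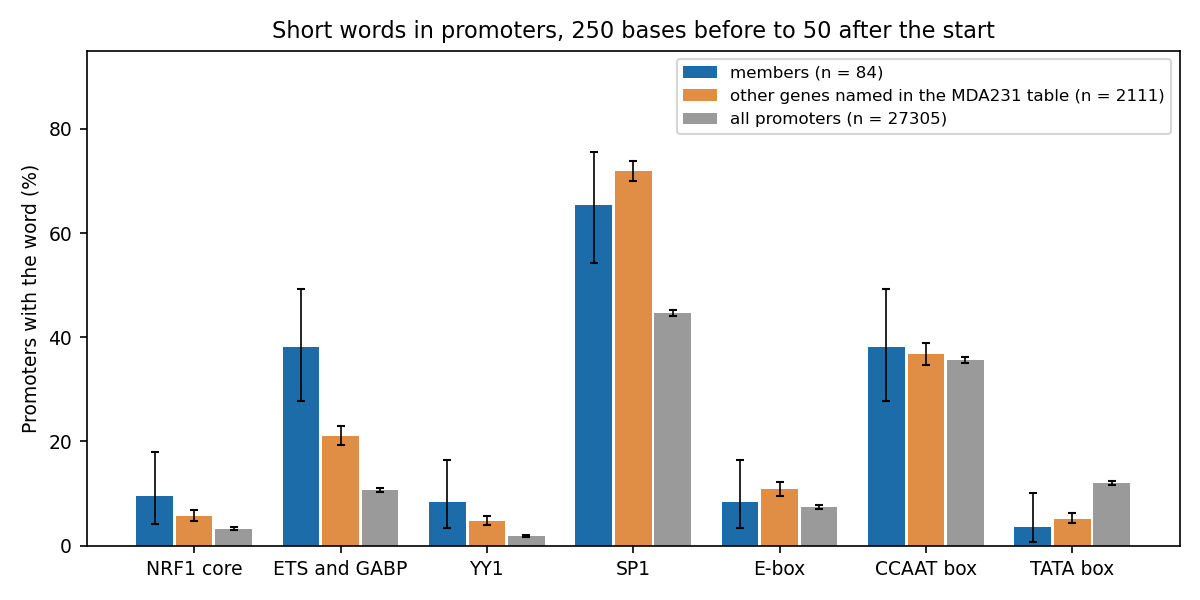
Share of promoters that hold each of 7 words on either strand (vertical axis, percent), for 84 members, 2111 other genes of the MDA231 table and all 27305 promoters, with exact 95% binomial intervals. The ETS word is in 38.1%, 21.1% and 10.7% of the sets, and the CCAAT box is at a similar level in each.

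Counting may be uncertain for some members. GENCODE names at least 1 pseudogene after 26 of the 98, with 8 for MRPS21, 6 for SLC25A6 and 4 for MRPS17. Pseudogenes were not counted for other genes, so this is not shown to be particular to the members. How the authors' counting treated reads shared with such copies, or with the mouse genes of the host, is not given in the sources used here.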

How the data were processed

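Each deposited value comes from 2 term tables, 1 for each cell line, of Gene Ontology biological processes. A row, per the file headers, gives numbers of genes (the term's listed and background genes, the list and the background), a p-value, 2 adjusted p-values (by Bonferroni and by Benjamini, the latter printed here) and a fold enrichment ratio. The deposited percent, false discovery rate and unnamed −log10 p-value columns were not used. Per the submitters' processing notes, reads went through STAR and HTSeq with GRCh38 and GRCm38. The rule that chose the list genes and the enrichment tool are not given in the labels or headers, and library depths are unknown.

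The members, the gene lists, the functions and the rule for named genes were chosen with earlier results of these data known. Values in full were planned for genes of the translation term, members in at least 2 mitochondrial terms, the 10 members in most terms, and up to 8 genes of each list. No test was run. Listed shares have exact (Clopper-Pearson) 95% binomial intervals, which cover counting error only. Positions are from GENCODE release 29 (GRCh38) and promoters from RefSeq (GRCh38.p14), matched by symbol, the first entry of a gene where several were listed. The search for words was tried on simulated promoters with planted words, made of A and T only, or of C only for the TATA box. This checks that the search finds a planted word and says nothing about matches by chance in real promoters. The planned description of protein ends was left out, and a few genes that are counted are not reported here by name. Head-to-head pairs and a longer term set were added after the data were seen. Python 3.11.15, NumPy 2.4.6, SciPy 1.17.1 and Matplotlib 3.10.9 were used.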

Additional observations from a re-analysis of the deposited data

How the results depend on the processing

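The values are counts and shares from term tables, with no test and no replicate error. No paired analysis was possible because no value per library was used. Protein ends were not described, so their alternatives were not run. Of 76 alternatives, 58 left a value within 1.5 times the count or within its binomial interval and 18 moved it further. Some of the 58 could not move. The number of gene identifiers equals the deposited count in every mitochondrial term, and the calcium uniporter list began at 0. Of the 18 that moved, 9 were single gene lists under the rule of at least 2 terms. They fell from 11 to 5 for the aminoacyl-tRNA synthetases, 12 to 4 for complex IV assembly, 11 to 4 for inner membrane import, 8 to 5 for fusion, fission and cristae, 3 to 1 for both translation factors and outer membrane import, and to 0 for complex I assembly, complex I subunits and the assembly of complexes II, III and V, so the order of the lists changed. The ribosome lists stayed at 16 and 11, since the elongation and termination terms share nearly all their genes, so nothing is read from the new order. Under the rule of at least 2 terms, 75 of the 394 distinct list genes counted as named, against 114. With only genes in at least 2 mitochondrial terms, 30 members remained of 98, among them the 27 shared by the elongation and termination terms. Leaving out the subtraction gave 98. With only terms of unadjusted p under 0.05, 59.2% of members stood in no other term. On the gene's own strand alone, the ETS word was in 21.4% of member promoters and 12.7% of other table genes. In the same order, SP1 was in 42.9% and 49.9%, the CCAAT box in 17.9% and 21.1%, and the TATA box in 0% and 3.55%. In the 150 bases before the start, SP1 was in 51.2% of members and 62.2% of other table genes, and YY1 in 0% and 0.663%. These shares fell in the other table genes as well, so the falls are not particular to the members. Starts within 500 or 2000 bases, chosen after seeing the data, gave head-to-head shares of 19.4% and 22.4%, against 6.69% and 8.11% of protein-coding genes.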
